A study of Arabidopsis thaliana with 2 samples.

Results

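The MYB transcription factors measured here were the genes whose array annotation named a MYB domain, a MYB transcription factor or a MYB-like protein, or whose symbol began with MYB or ATMYB, ignoring case. Of 149 loci found this way, 8 were set aside because they are among 11 regulators, of glucosinolates, flavonoids, stomata and the clock, that the definition leaves out. The remaining 141 genes, out of 26385 with a named probe, were each read from their brightest probe. RNA came from young leaves of Columbia-0 plants of Arabidopsis thaliana on day 30 of growth, raised in a greenhouse with long days, per the labels. Wild-type plants were compared with the transgenic line 35S:NROB #2 in the same background. The prefix 35S conventionally denotes a viral promoter active in most plant cells, and the labels do not spell out NROB. Each of 2 Agilent two-colour arrays held 1 wild-type and 1 transgenic sample, so that n = 2 for every value below. The labels call the arrays biological replicates and do not say how many plants each held, and 1 transgenic line was used. Wild type carried Cy5 and 35S:NROB #2 carried Cy3 on both arrays, so the effects of dye and genotype cannot be told apart.

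MYB proteins bind DNA through a MYB domain built of imperfect repeats, and plants carry a large family of them in which a pair of repeats, R2 and R3, is the usual form. Members act as activators or repressors of phenylpropanoid, lignin, flavonoid, glucosinolate and wax synthesis, of cell shape and trichome formation, of the cell cycle (the forms with 3 repeats) and of responses to stress hormones and pathogens. Many R2R3 forms work in a complex with a bHLH protein and the WD40 protein TTG1.

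The deposited values were intensities on a linear scale, each with a flag letter per array. P was read as present in both channels, a meaning inferred from the values. Of the 141 MYB genes, 56 had such a flag on both arrays and were tested, among 16961 genes in all. Precision is limited by there being 2 arrays, and the median intensity of tested genes lay between 1087 and 1246 in the 4 channels. All 3 leaf markers were flagged P on both arrays, and 0 of 9 root, flower and seed markers were, while 2 of the 9, the flower markers AG and SEP3, were on 1 array. The flower marker PI, which specifies petals and stamens, had intensities of 6.21 and 7.49 in wild type against 28.9 and 90.2 in 35S:NROB #2. AP3, which acts with it, was at 8.45 or less in all 4 channels. NROB was named in the annotation of 0 probes, so the transgene could not be checked.

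Among the tested MYB genes a small group that includes the drought regulator MYB2 and the lignin regulator MYB20 was higher in 35S:NROB #2. MYB2, MYB50, MYB13 and MYB20 had a mean log2 ratio over 1 with the same sign on both arrays, which is the study's threshold of a 2-fold change and is called the fold rule here. The MYB-like gene AT5G56840 passed it in the other direction. Thus 4 of the 56 genes (background 4.83% of all genes tested) passed as higher and 1 (background 2.84%) as lower, 8.93% together against 7.68% of all genes. These shares lie near the background, so the family as a whole did not stand out by this count. The median log2 ratio of the 56 genes was -0.06, against -0.03 over all genes tested. The 56 genes were more spread than the array as a whole. Their 25th and 75th percentiles were -0.54 and 0.30, against -0.29 and 0.22 over all genes, and the median size of the log2 ratio was 0.37 against 0.26. Within 0.5 of no difference lay 33 of the 56 (58.9%), against 12649 of all genes tested (74.6%). No test was made of this difference in spread.

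None of the 56 MYB genes passed the limma test with Benjamini-Hochberg adjustment over all genes at 0.05 (0 higher, background 0.236%, and 0 lower, background 0.0177%, or 0 against 0.254% together). At an unadjusted limma p under 0.05 there were 12 higher (background 15.5%) and 17 lower members (background 17.6%), or 51.8% against 33.1% of all genes. The genes past the fold rule missed the adjusted threshold narrowly, with limma adjusted p values from 0.0516 to 0.0563. The threshold fell on a steep part of the distribution, since 43 genes of the whole array had an adjusted p under 0.05 and 667 under 0.06. With each array centred on its median, MYB2, MYB50, MYB13, MYB20 and AT5G56840 were all called, and the same 5 were called after loess. Under the alternatives that kept the channels of an array paired, limma adjusted p values ranged from 0.0354 to 0.078 for MYB2, from 0.0345 to 0.0762 for MYB50, and from 0.0301 to 0.0734 for AT5G56840. With the channels unpaired, the limma adjusted p fell to 1.8e-17, 1.1e-07 and 5.6e-07 for these 3 genes. That fit ignores that each array held both genotypes, so it is wrong for this design. Its p values are therefore no support for a difference in these genes. For the whole array the split of calls moved from 40 higher and 3 lower to 465 and 150 after centring, 517 and 156 after loess, and 702 and 383 after quantile normalization.

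**Figure D1:**
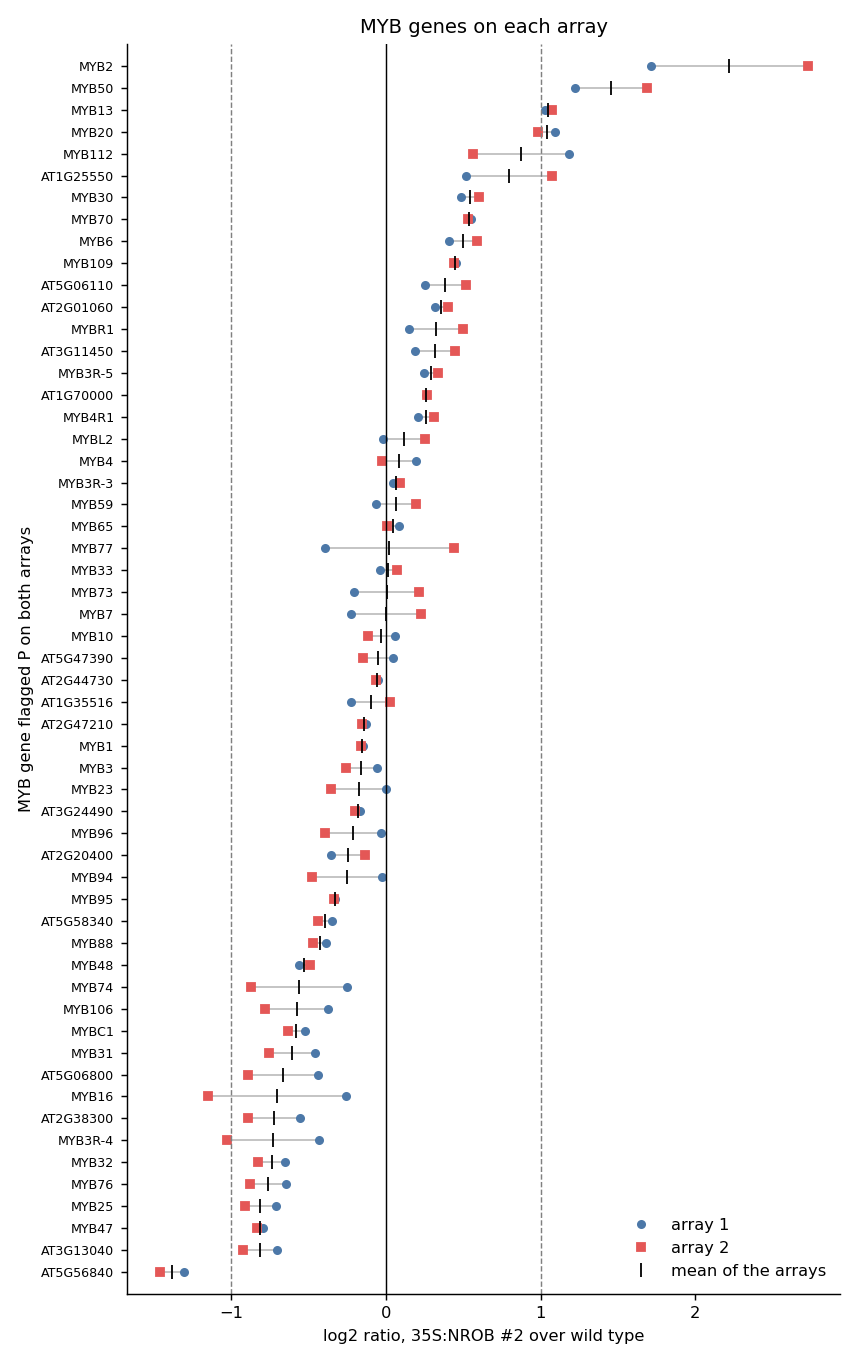
Log2 ratio of 35S:NROB #2 over wild type for the 56 MYB genes flagged P on both arrays, ordered by mean. Circles are array 1, squares array 2, ticks the mean, and dashed lines mark a 2-fold difference. Only MYB2, MYB50, MYB13 and MYB20 have means above the upper dashed line, and only AT5G56840 below the lower one.

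Ratios were larger in size on array 2 for 47 of the 56 MYB genes and for 12749 of the 16961 genes tested. The MYB genes had the same sign on both arrays in 46 cases, 19 higher (33.9%, background 37.8%) and 27 lower (48.2%, background 43.3%). The other 10 had opposite signs (background 18.9%). With array 1 alone, 5 members were over 2-fold higher (background 3.41%) and 1 lower (background 1.28%), with MYB112 joining the higher ones. With array 2 alone, 4 were higher (background 6.96%) and 3 lower (background 6.1%): AT1G25550 joined the higher ones, MYB20 dropped out, and MYB16 and MYB3R-4 joined the lower ones.

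**Figure D2:**
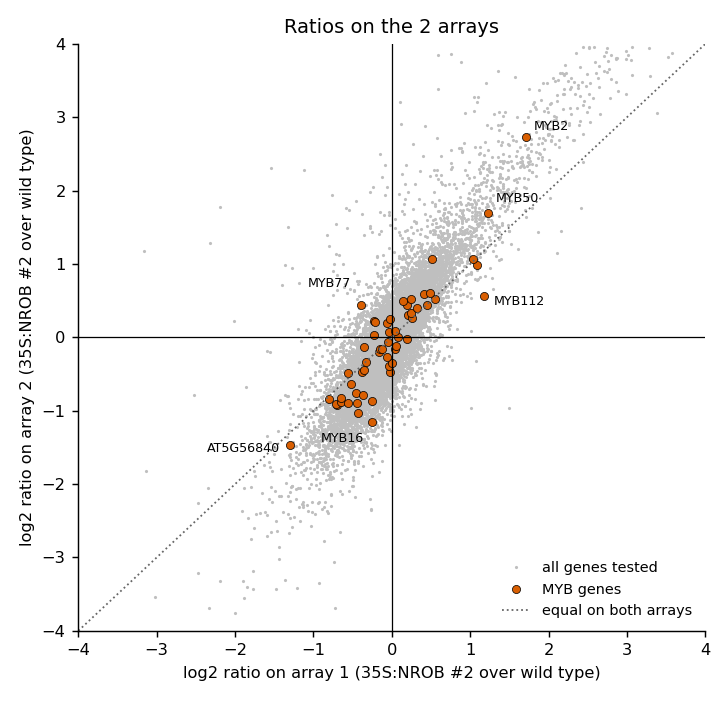
Log2 ratio of 35S:NROB #2 over wild type on array 1 (x axis) and array 2 (y axis) for all 16961 genes tested (grey) and the 56 MYB genes (orange). The dotted line marks equal ratios, and 87 genes lie outside the plotted range of 4 either way. MYB2 lies at 1.71 and 2.73, above the dotted line, and MYB112 at 1.18 and 0.57, below it.

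Subgroup 20 of the R2R3 family holds stress-responsive regulators. MYB2 (AT2G47190), an activator of abscisic acid and drought responses, had intensities of 39.7 and 34.6 in wild type against 130 and 229 in 35S:NROB #2. Both transgenic samples lay above both wild-type samples, and the wild-type values were close to 28.03 and 25.4, the dimmest wild-type intensities with that flag on the 2 arrays. The mean log2 ratio was 2.22 ± 0.72 (SD, n = 2), a 4.66-fold difference, with a limma adjusted p of 0.0563. After adding 50 to all intensities it stood at 1.37, so its size depends on how dim values are treated. MYB112 (AT1G48000), known as a promoter of anthocyanin formation under salt and high light, had 94.99 and 237 in wild type against 215 and 350 in 35S:NROB #2. Its groups overlapped, and the log2 ratio was 1.18 on array 1 and 0.57 on array 2, just outside the fold rule (mean 0.87 ± 0.44, limma adjusted p = 0.0861). MYB108, also called BOS1 and known from the containment of cell death, MYB78, MYB62 and MYB116 of the same subgroup were flagged A on both arrays.

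Subgroup 2 consists of MYB13, MYB14 and MYB15. MYB13 (AT1G06180) had intensities of 208 and 248 in wild type against 424 and 521 in 35S:NROB #2, with no overlap. Its log2 ratios were 1.03 and 1.07, close to each other (mean 1.05 ± 0.03, 2.07-fold, limma adjusted p = 0.0529). MYB15 (AT3G23250), an activator of lignin genes in immunity and a repressor of cold-induced CBF genes, was flagged P on array 1 and A on array 2. It stood at 116 and 19.6 in wild type against 329 and 409 in 35S:NROB #2, both transgenic samples above both wild-type samples. On array 2 its wild-type value lay below the lowest intensity flagged P, so only the log2 ratio of 1.503 on array 1 was measured on both sides. MYB14 was flagged A on both arrays, with 12.7 and 8.71 in wild type against 9.13 and 9.36 in 35S:NROB #2. Of the 3 genes of this subgroup 1 was thus tested.

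Subgroup 13 contains MYB50, MYB55, MYB61 and MYB86, of which MYB61 is known as a regulator of lignin deposition, seed mucilage and stomatal aperture. MYB50 (AT1G57560) had 116 and 107 in wild type against 270 and 344 in 35S:NROB #2, and the groups did not overlap. Its mean log2 ratio was 1.46 ± 0.33, a 2.74-fold difference, with a limma adjusted p of 0.0542. MYB86 (AT5G26660) was dim in both wild-type samples (10.6 and 15.4) and brighter in 35S:NROB #2 (58.9 and 97.7). It was at least 2.84-fold higher in 35S:NROB #2, from the mean of the 2 arrays' log2 bounds. In each, the wild-type value was replaced by the lowest intensity flagged P in that channel. A stricter floor, the brightest dimmer channel among spots flagged A on the same array (50.1 and 66.0), chosen after seeing the data, gave at least 1.32-fold. MYB61 had 8.77 and 21.4 in wild type against 33.7 and 53.7 in 35S:NROB #2, of which only the last lay above the lowest intensity flagged P in its channel (51.0). MYB55 had 17.7 and 28.6 against 41.9 and 39.3, and was flagged A on both arrays.

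Lignin and secondary wall regulators lay on both sides. MYB20 (AT1G66230), which with MYB42, MYB43 and MYB85 activates phenylalanine and lignin synthesis, had 192 and 268 in wild type against 410 and 531 in 35S:NROB #2. Both transgenic values exceeded both wild-type values, and the mean log2 ratio was 1.04 ± 0.08 (2.05-fold, limma adjusted p = 0.0542). On array 2 alone it was 0.98, just inside the 2-fold mark. MYB85 (AT4G22680) stood at 8.88 and 15.8 in wild type against 42.0 and 116 in 35S:NROB #2. It was at least 2.61-fold higher by the same mean bound as MYB86. With the stricter floor the mean bound was 1.21-fold. That value rests on array 2, since the 42.0 on array 1 lay below the stricter floor (50.1). MYB42 was flagged P on array 2 alone, where it had 32.6 in wild type and 67.9 in 35S:NROB #2. MYB43 was on the other side, with 76.7 and 127 in wild type against 51.8 and 43.7 in 35S:NROB #2, flagged P on array 1 alone. MYB46 and MYB83, the master switches of secondary wall formation, had 79.8 and 96.5, and 37.8 and 49.3, in wild type. In 35S:NROB #2 they had 57.8 and 39.1, and 26.6 and 17.9, lower in both transgenic samples than in either wild-type sample. MYB46 was flagged P on array 1 alone, and its 39.1 lay below the lowest intensity flagged P in that channel (51.0). MYB83 was flagged A on both arrays, and both its transgenic values lay below the lowest intensities flagged P. By the bound used for MYB86, a mean of the 2 arrays, wild type was at least 1.02-fold higher for MYB83. Array 2 alone gave no bound, since the wild-type 49.3 lay below the lowest transgenic intensity flagged P (51.0). The stricter floor gave none on the mean. MYB58, a lignin activator, had 76.8 and 140 in wild type against 63.3 and 17.8 in 35S:NROB #2. MYB42, MYB43, MYB46, MYB58, MYB83 and MYB85 missed the flag filter and were not tested.

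**Figure D3:**
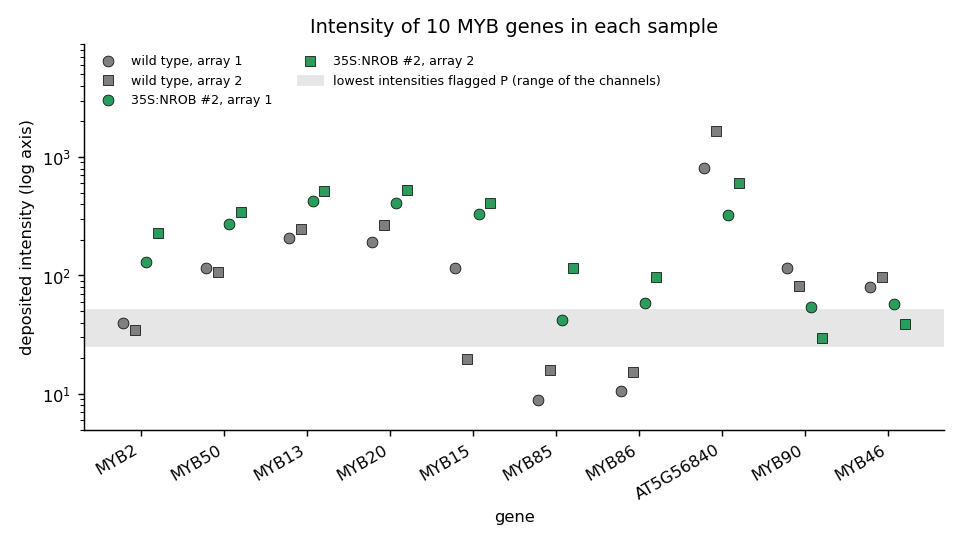
Deposited intensity (log axis) of 10 MYB genes in the 4 samples, grey for wild type and green for 35S:NROB #2, circles for array 1 and squares for array 2. The grey band spans the lowest intensities flagged P over the channels, 25.4 to 51.0. MYB85 and MYB86 lie below the band in both wild-type samples, and MYB90 and MYB46 are lower in the transgenic samples.

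Enzymes of the phenylpropanoid and lignin pathway, on which several of these factors act, were higher on average. Of 16 listed genes 15 were tested, and 13 had higher values on both arrays (86.7%, background 37.8%) and 0 lower ones (background 43.3%). Past the fold rule was 1 (6.67%, background 7.68%), with 0 limma calls (background 0.254%). At an unadjusted limma p under 0.05 there were 10 higher (background 15.5%) and 0 lower (background 17.6%). Their median log2 ratio was 0.63 against -0.03 over all genes. OMT1, a methyltransferase of lignin and flavonol synthesis, had 11633 and 13191 in wild type against 25247 and 40248 in 35S:NROB #2 (1.36 ± 0.35). 4CL3, a ligase of the same pathway, was flagged P on array 1 alone and not tested, and was on the other side. It had 234 and 371 in wild type against 86.4 and 33.6 in 35S:NROB #2, a log2 ratio of -1.44 on array 1. The other tested genes with the largest ratios were C4H (0.92 ± 0.33) and PAL1 (0.89 ± 0.31), the enzymes that open the pathway. Secondary wall genes were on the lower side: all 8 tested of 11 were lower on both arrays (background 43.3%), and the median was -0.95. Of the 8, 4 passed the fold rule as lower (background 2.84%), again with 0 limma calls. At an unadjusted limma p under 0.05 all 8 were lower (background 17.6%). FLA12, a fasciclin-like protein of the wall, stood at -1.16 ± 0.43, and the cellulose synthases IRX3 and IRX1 at -1.08 ± 0.58 and -1.08 ± 0.62. Both xylem markers, XCP1 and IRX3, were lower on both arrays, and their intensities summed to 1252 and 1481 in wild type against 879 and 551 in 35S:NROB #2. The part of that difference in the values of the wall regulators was not tested, and in whole leaves fewer cells of a type and less RNA per cell cannot be told apart.

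**Figure D4:**
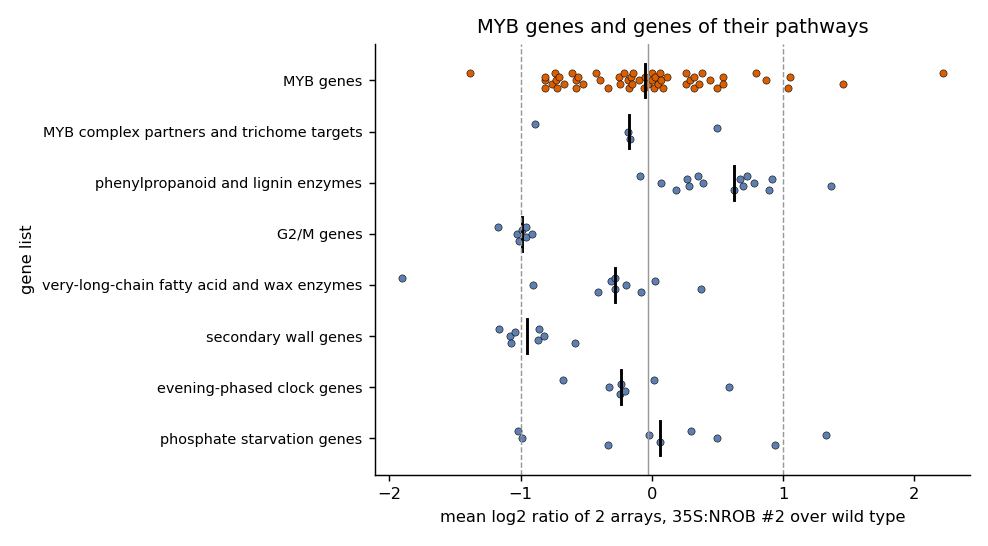
Mean log2 ratio of 35S:NROB #2 over wild type (2 arrays) for the 56 MYB genes and for the tested genes of 7 pathway lists. Thick lines mark list medians, the thin line the median of all genes (-0.03), and dashed lines a 2-fold difference. Phenylpropanoid enzymes have a median of 0.63, secondary wall genes -0.95 and G2/M genes -0.99. Not every gene of the list labelled evening-phased peaks in the evening.

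Repressors of the phenylpropanoid pathway form subgroup 4, and all 5 members were tested without passing the fold rule. MYB32 (AT4G34990) was lowest, with 1102 and 1314 in wild type against 701 and 742 in 35S:NROB #2 (-0.74 ± 0.12, limma adjusted p = 0.0669). MYB6 (AT4G09460) stood highest, with 822 and 868 against 1091 and 1306 (0.50 ± 0.13, limma adjusted p = 0.0939). In both genes the genotypes did not overlap, in opposite directions. MYB4, which represses the C4H gene, stood at 0.09 ± 0.16, MYB3 at -0.16 ± 0.14, and MYB7 at -0.22 on array 1 and 0.23 on array 2.

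The flavonoid activators MYB90, MYB113, MYB114 and MYB12 missed the flag filter. MYB90 (AT1G66390), also called PAP2 and an activator of anthocyanin synthesis, had 115 and 81.1 in wild type against 54.2 and 29.7 in 35S:NROB #2, both transgenic samples being lower, and was flagged P on array 1 alone. MYB113 and MYB114, its neighbours on chromosome 1, are close relatives, and whether these probes tell the 3 genes apart was not tested. MYB113 had 107 and 26.9 in wild type against 79.2 and 56.3 in 35S:NROB #2, with overlapping genotypes, and MYB114 had 9.94 and 10.99 against 38.6 and 37.1. The flavonol activator MYB12 had 22.7 and 35.7 in wild type against 8.31 and 10.01 in 35S:NROB #2, flagged A on both arrays. MYBL2, a single-repeat repressor of anthocyanin synthesis, had 5931 and 6743 in wild type against 5841 and 8017 in 35S:NROB #2 and stood at 0.11 ± 0.19 (limma adjusted p = 0.578). Among listed bHLH and WD40 partners of MYB proteins in general, TTG1 stood at 0.50 ± 0.02 (limma adjusted p = 0.0868) and MYC1 at -0.89 ± 0.34. TT8, GL3 and EGL3 were flagged A on both arrays. Of the 7 genes listed as partners and trichome targets 4 were tested, with 0 past the fold rule (background 7.68%). Across both arrays 1 was higher (25%, background 37.8%) and 3 were lower (75%, background 43.3%).

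Subgroup 1 regulates very-long-chain fatty acid and wax synthesis, and its 4 genes split. MYB30 (AT3G28910), an activator of the hypersensitive cell death programme, had 1303 and 1400 in wild type against 1825 and 2124 in 35S:NROB #2. It was higher in both transgenic samples, at 0.54 ± 0.08 (1.46-fold, limma adjusted p = 0.0814). MYB31 had 119 and 126 against 86.8 and 74.4, a log2 ratio of -0.61 ± 0.21 (limma adjusted p = 0.0865). The wax activators MYB94 and MYB96 stood at -0.25 ± 0.32 and -0.21 ± 0.26, with ratios of -0.03 and -0.03 on array 1 and -0.48 and -0.39 on array 2. Cuticle regulators of subgroup 9, which also shape epidermal cells, were lower on both arrays. MYB16 had 2293 and 3054 in wild type against 1916 and 1374 in 35S:NROB #2 (-0.71 ± 0.63, limma adjusted p = 0.16), and MYB106 stood at -0.58 ± 0.29 (limma adjusted p = 0.105). Of 12 wax and fatty acid enzymes, 10 were tested, with a median of -0.28 and 0 limma calls. Across both arrays 7 were lower (70%, background 43.3%) and 0 higher (background 37.8%). Near the background were the 1 gene past the fold rule (10%, background 7.68%) and the 2 lower at an unadjusted limma p under 0.05 (20%, background 17.6%). CER1, an alkane-forming enzyme, was the lowest, at -1.90 ± 1.65, followed in size by CER2 at -0.91 ± 0.61 and CER3 at -0.41 ± 0.36.

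Subgroup 22 responds to hormones and stress, and its 4 members were all tested. MYB70 was higher in both transgenic samples, with 2013 and 2029 in wild type against 2948 and 2928 in 35S:NROB #2 (0.54 ± 0.02, limma adjusted p = 0.0796). MYBR1, better known as MYB44 and a regulator of abscisic acid signalling, had 13417 and 9012 against 14869 and 12731, with overlapping genotypes (0.32 ± 0.25). MYB73 and MYB77, the latter known from auxin responses, had opposite signs on the arrays: -0.21 and 0.22 for MYB73, and -0.40 and 0.44 for MYB77. The larger differences of MYB77 lay between samples of 1 genotype, with 7530 and 2210 in wild type against 5718 and 2998 in 35S:NROB #2.

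Between the wild-type samples, array 2 over array 1, 2 of the 56 MYB genes were over 2-fold higher (background 0.183%) and 1 lower (background 0.996%). These were MYB112 (log2 1.32) and AT5G56840 (1.06), and MYB77 (-1.77). Between the 35S:NROB #2 samples 0 were over 2-fold higher (background 0.601%) and 0 lower (background 0.401%), with MYB77 the lowest at -0.93 and AT5G56840 the highest at 0.90. The medians of the 56 genes were 0.21 in wild type and 0.16 in 35S:NROB #2, close to those of all genes (0.22 and 0.21).

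**Figure D5:**
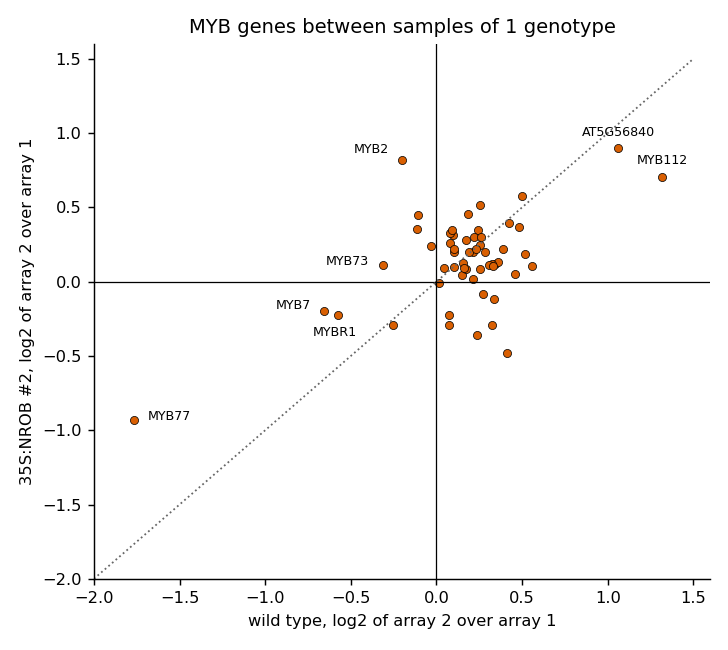
Log2 of array 2 over array 1 in wild type (x axis) and in 35S:NROB #2 (y axis) for the 56 MYB genes, where the dotted line marks equal values. MYB77 stands apart at -1.77 and -0.93, and MYB112 and AT5G56840 have the highest values in wild type.

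The 3-repeat proteins control entry into mitosis, MYB3R-4 as an activator and MYB3R-3 and MYB3R-5 as repressors. MYB3R-4 (AT5G11510) had 143 and 169 in wild type against 106 and 82.7 in 35S:NROB #2, lower in both transgenic samples (-0.73 ± 0.42, limma adjusted p = 0.102). MYB3R-5 stood at 0.29 ± 0.07 and MYB3R-3 at 0.07 ± 0.03. Of 12 listed G2/M genes 7 were tested, all 7 lower on both arrays (background 43.3%), with a median of -0.99. Of the 7, 3 passed the fold rule as lower (42.9%, background 2.84%), with 0 limma calls. At an unadjusted limma p under 0.05 all 7 were lower (background 17.6%). KN, the cytokinesis syntaxin KNOLLE, stood at -1.18 ± 0.27, CYCA1;1 at -1.03 ± 0.36 and CDC20.1 at -1.01 ± 0.42.

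The R2R3 genes of other subgroups lay on both sides. MYB76, an activator of aliphatic glucosinolate synthesis, had 235 and 302 in wild type against 150 and 164 in 35S:NROB #2 (-0.76 ± 0.16, limma adjusted p = 0.0686). MYB47 had 1663 and 1393 against 958 and 782 (-0.81 ± 0.03, limma adjusted p = 0.0603) and MYB25 had 164 and 190 against 99.9 and 101 (-0.81 ± 0.14, limma adjusted p = 0.0636). Neither reached the fold rule, and in both the genotypes did not overlap. MYB109, a relative of MYB25, was on the other side at 0.45 ± 0.01 (limma adjusted p = 0.0977), and MYB1 stood at -0.16 ± 0.01. MYB48 and MYB59, a closely related pair, stood at -0.53 ± 0.05 and 0.06 ± 0.18. MYB88, which limits divisions in the stomatal lineage, stood at -0.43 ± 0.06, beside -0.40 ± 0.07 for the guard cell marker FAMA, whose part was not tested. MYB23, a trichome regulator, stood at -0.18 ± 0.25, beside -0.17 ± 0.20 for the trichome marker GL2. MYB33 and MYB65, the gibberellin-related factors targeted by the microRNA miR159, stood near no difference, at 0.01 ± 0.08 and 0.05 ± 0.05. The 95% limma intervals were -0.31 to 0.34 for MYB33 and -0.28 to 0.37 for MYB65. These values are from the brightest probe of each gene. A 2nd probe of MYB33, also flagged P on both arrays, had a mean of 0.47, outside that interval. The value for MYB33 thus depends on the probe. In subgroup 11, which holds stress-related genes, MYB74 stood at -0.56 ± 0.44 (limma adjusted p = 0.149), and MYB102 had 98.4 and 130 in wild type against 50.9 and 46.6 in 35S:NROB #2, flagged P on array 1 alone. MYB41, a suberin activator of the same subgroup, had 60.1 and 20.6 against 69.6 and 13.6. It was flagged P on array 1 alone, where it was slightly higher in 35S:NROB #2 (log2 0.21).

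Among tested MYB-like genes without a MYB symbol, AT5G56840 had the largest mean difference. Its intensities were 802 and 1674 in wild type against 325 and 607 in 35S:NROB #2, a log2 ratio of -1.38 ± 0.11 and a 2.61-fold lower level (limma adjusted p = 0.0516). Both wild-type samples exceeded both transgenic samples. It was the 1 member past the fold rule among the 31 MYB genes above the lower quartile of intensity, whereas MYB2, MYB50, MYB13 and MYB20 belonged to the 25 within that quartile. All genes passed the fold rule more often there too, 13.9% against 5.59% above it, beside 16.0% and 3.23% of the MYB genes. AT1G25550, annotated as MYB-like, had 2770 and 2574 in wild type against 3969 and 5412 in 35S:NROB #2 (0.80 ± 0.39, limma adjusted p = 0.0879), just outside the fold rule. Of 6 tested genes annotated as MYB-like HTH regulators, 5 were lower (83.3%, background 43.3%) and 1 was higher (16.7%, background 37.8%) on both arrays, with a median of -0.53. AT3G13040 was the lowest of them, at 674 and 853 in wild type against 414 and 449 in 35S:NROB #2 (-0.82 ± 0.16, limma adjusted p = 0.0637), and AT2G01060 was the higher one, at 0.36 ± 0.06. The 3 probes of AT2G01060 flagged P on both arrays had means from 0.05 to 0.36. MYBC1, known as a negative regulator of freezing tolerance, stood at -0.58 ± 0.08 (limma adjusted p = 0.0773), and AT5G47390, also called KUA1 and known from leaf cell expansion, at -0.05 ± 0.14. Both DnaJ proteins with a MYB-like domain, AT5G06110 and AT3G11450, stood at 0.38 ± 0.19 and 0.32 ± 0.18. Each lies beside a member described above in the RefSeq gene order, AT5G06110 beside MYB33 and AT3G11450 beside MYB65.

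RVE8, the clock activator among the members, was flagged A on both arrays, with 13.2 and 25.1 in wild type against 26.7 and 41.8 in 35S:NROB #2. Of 7 listed clock-related genes, 5 were lower (71.4%, background 43.3%) and 0 higher (background 37.8%) on both arrays, with a median of -0.23. Past the fold rule were 0 (background 7.68%), with 0 limma calls. At an unadjusted limma p under 0.05, 2 were lower (28.6%, background 17.6%). ELF4 stood at -0.67 ± 0.05, GRP7 at 0.59 ± 0.89 and LNK1 at -0.33 ± 0.05. Phosphate starvation genes, under the control of MYB-like PHR factors, had 9 tested, with a median of 0.06 and 0 limma calls. On both arrays 5 were higher (55.6%, background 37.8%) and 3 lower (33.3%, background 43.3%). Past the fold rule were 1 higher (background 4.83%) and 1 lower (background 2.84%). At an unadjusted limma p under 0.05 there were 3 higher (background 15.5%) and 3 lower (background 17.6%). The phosphate transporter PHT1;4 stood at 1.33 ± 0.37, the lipid synthase MGD3 at -1.02 ± 0.75 and the phosphate exporter PHO1 at -0.99 ± 0.29.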

How the data were processed

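Two-colour Agilent arrays were processed by the authors with Agilent Feature Extraction 8.5.1.1, per the submitters' processing notes. The deposited table holds a normalized intensity per channel, per the file headers, whose background correction and normalization are not given in the sources used here. The deposited log2 ratio, wild type over 35S:NROB #2, equals the log2 of the channels within 9.6e-07, and the deposited series values are the same ratios turned and not centred further (array medians -0.04 and 0.02). All ratios here are 35S:NROB #2 over wild type.

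Of 43603 gene probes, 36709 were given a locus by accession, locus or symbol, with RefSeq names of assembly TAIR10.1 used for names and gene order. Each gene took its brightest probe flagged P on both arrays, which left 16961 genes. Of the 141 members 137 were named by accession and 4 by symbol. Of 17 members with several such probes, none had probe means of opposite sign (0 members). The largest gap was 0.46, for MYB33, followed by MYB7 (0.33), AT2G01060 (0.31), MYB106 (0.30) and MYB59 (0.27). The test was limma 3.58.1 under R 4.3.3 (intercept fit, eBayes, 1 residual and 2.72 prior degrees of freedom), with P values adjusted by Benjamini-Hochberg over all genes. The fold rule is no test. The rule was also run on simulated ratios with planted differences. Those ratios held no dye effect and no floor for dim probes, so they cannot show how the rule performs on these arrays. Python 3.11.15 with pandas 2.3.3 and matplotlib 3.10.9 served for tables and plots. P values set a gene's mean ratio against the spread between these 2 arrays, which limma moderates with the spread of all genes.

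The members and gene lists were chosen with earlier results of these data known. Genes were named if they passed limma or the fold rule, lay next to its limits (3 on each side) or shared a subgroup with a gene past it, and from each list up to 3 with the largest ratios. Other members were added by role after their values were seen. Alternatives covered normalization, filters on dim probes, an offset, the choice of probe, pairing of channels and single arrays.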

Additional observations from a re-analysis of the deposited data

How the results depend on the processing

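The count of MYB genes called by limma (0 of 56) depended on the setting, as did the count over all genes (43). With the arrays centred on their medians, 5 MYB genes and 615 genes in all were called. Loess gave 5 and 673, quantile normalization 8 and 1085, an offset of 50 gave 5 and 741, and the mean of a gene's probes 5 and 616. Without the lower quartile of intensity, 31 MYB genes were tested and 1 was called (326 of 12720 genes in all). Of the 31, 1 passed the fold rule (3.23%, background 5.59%) and 24 had the same sign on both arrays (background 10355 of 12720). With no filter on flags, all 141 were tested and 15 were called (1534 of 26385 genes in all), while 21 passed the fold rule and 96 had the same sign. With no replicate block, that is with the channels of an array unpaired, 16 MYB genes and 2947 genes were called. The pairing comes from the shared array, so the unpaired fit is wrong for this design and its calls are no support. Asking for the flag P on 1 array only was added once the data had been seen. It gave 65 tested MYB genes, 0 called (27 of 17684 genes in all) and 10 past the fold rule. With the offset, 3 MYB genes passed the fold rule. The share of all genes past the fold rule was not counted with no filter, with P on 1 array or with the offset. Those member counts therefore have no background beside them. The cause of these shifts was not tested. Under the filters the number of genes changed too.

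The median log2 ratio of the MYB genes (-0.06) was -0.0308 after centring, -0.0137 after loess, -0.10 without the lower quartile, -0.0066 with no filter on flags and -0.10 with P on at least 1 array. Leaving out a replicate gave medians from -0.0903 to -0.0561 and 6 to 7 MYB genes past 2-fold. The 11 genes named by rule kept their direction in 104 of 104 values. They were named for their ratios on these same 2 arrays, so this count could hardly have differed and is no support. With single arrays no test was possible. Dim channels limited 85 of the 141 genes.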

Other observations

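Of the 85 MYB genes without a probe flagged P on both arrays, 62 lay below the lowest intensity flagged P in all 4 channels. In these 62 no ratio was taken as measured. MYB120 and MYB108 are named from these dim genes after their values were seen. MYB120, a pollen tube factor, had 6.88 and 7.09 in wild type against 23.8 and 23.4 in 35S:NROB #2. MYB108 had 9.39 and 8.59 in wild type against 20.5 and 21.1 in 35S:NROB #2. The values of both genes lay close together within each genotype, yet under the range that was flagged P. Outside the 62, MYB5, a seed coat and trichome regulator, had 27.6 and 48.3 in wild type against 23.02 and 15.02 in 35S:NROB #2. It was flagged A on both arrays, and only the 48.3 lay above the lowest intensity flagged P in its channel (25.4). MYB17 was dim in 35S:NROB #2, with wild type at least 1.17-fold higher, and the stricter floor gave no bound.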
